A study of Drosophila melanogaster with 6 samples.

Results

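Microtubules are hollow polymers of alpha tubulin and beta tubulin, which join as a dimer, and each subunit comes as several isotypes encoded by separate genes. In *Drosophila*, alphaTub84B, alphaTub84D and betaTub56D are transcribed in most tissues and supply the mitotic spindle and the general cytoskeleton. The other isotypes are known from few tissues: betaTub85D forms the meiotic spindle and the sperm tail axoneme in the male germline, betaTub60D and alphaTub85E are known from the developing mesoderm, sensory organs and somatic cells of the testis, betaTub97EF from gut and blood cells, and alphaTub67C from the oocyte and early embryo. The 8 genes were taken by their symbols from a table of 15656 genes, 4 alpha and 4 beta isotypes, of which 3 are ubiquitous and 5 tissue-restricted. The split into ubiquitous and tissue-restricted isotypes is textbook knowledge and used no value of the table.

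RNA of whole adult male flies, 3 to 5 d old and collected 12 h after *E. coli* injection, was sequenced as poly(A)-selected paired-end libraries. The lncRNA-CR33942-overexpressing flies had the genotype Gal80ts; Tub>lncRNA-CR33942, and control flies were labelled Gal80ts; Tub-Gal4/P{CaryP}attP40, with 3 libraries of each. Both genotypes carried Gal80ts, a heat-sensitive repressor of the yeast activator Gal4, and a Tub driver, and both were infected and kept warm to release Gal4, so no uninfected flies enter the comparison. The Tub promoter of this driver is known to be that of alphaTub84B itself, and reads from any transcribed alphaTub84B sequence in the transgenes cannot be told apart from those of the native gene. The study's methods describe its data in general as coming from independent biological replicates. The labels do not say which flies went into which library, so p-values measure the spread between these libraries, whatever its source.

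Values are normalized counts, reads per gene over a library's own size factor, summing to between 17694885 and 17731267 in the overexpressing flies, against 18100175 to 18414322 in the control flies. lncRNA-CR33942 averaged 4636 ± 244 normalized counts with overexpression and 197 ± 17.1 without (SD, n = 3 each), so the libraries matched their labels. The male germline was well represented, as the 34 testis germline genes of a marker list summed to between 7014 and 7575 FPKM in the overexpressing flies, against 7066 to 7558 in the control flies. FPKM, computed here from the normalized counts, stands for fragments per kilobase of gene length after scaling to the library total, and it serves to compare levels between genes. Normalized counts were compared between genotypes with limma on the scale log2(normalized count + 1), over the 13196 genes whose mean reached 0.5 FPKM and with Benjamini-Hochberg adjustment over all of them. At an adjusted p under 0.05, 420 genes (3.18%) were called higher and 691 (5.24%) lower in the overexpressing flies, so 37.8% of the calls were upward, against 55.7% with scaling to the library total.

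The data show 2 tissue-restricted isotypes at higher levels in the lncRNA-CR33942-overexpressing flies, alphaTub85E by a log2 fold change of 0.46 and betaTub60D by 0.24. The call of alphaTub85E held in all 18 settings run, and that of betaTub60D in 10 of them. The 3 ubiquitous isotypes were not called and lay between -0.065 and -0.025 on the same log2 scale. The testis isotype betaTub85D (0.10) and betaTub97EF (-0.098) were not called either. The oocyte isotype alphaTub67C did not pass the filter on low values, so 7 of the 8 genes were tested, with 2 called higher and 0 called lower. The median log2 fold change was -0.025 over the 7 tested tubulin genes and 0.0059 over all genes tested.

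The ranking of levels was the same at its top in all 6 libraries. The mean over the 6 libraries was 754 FPKM for alphaTub84B, 311 for betaTub85D, 262 for betaTub56D and 89.0 for alphaTub84D. Below these came betaTub97EF with 52.7 FPKM, betaTub60D with 49.9, alphaTub85E with 15.9 and alphaTub67C with 0.348. Among all 15656 genes, alphaTub84B ranked 133 by mean FPKM, betaTub85D ranked 349 and betaTub56D ranked 396. A tissue-restricted isotype was therefore the most abundant beta tubulin transcript of these whole males. The neighbours betaTub97EF and betaTub60D were not separated: their libraries overlapped in both genotypes, with 51.5 ± 1.01 FPKM for betaTub97EF against 54.8 ± 4.29 for betaTub60D in the overexpressing flies, and 53.8 ± 5.54 against 45.1 ± 2.98 in the control flies. The other neighbours in this order did not overlap in any library.

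**Figure D1:**
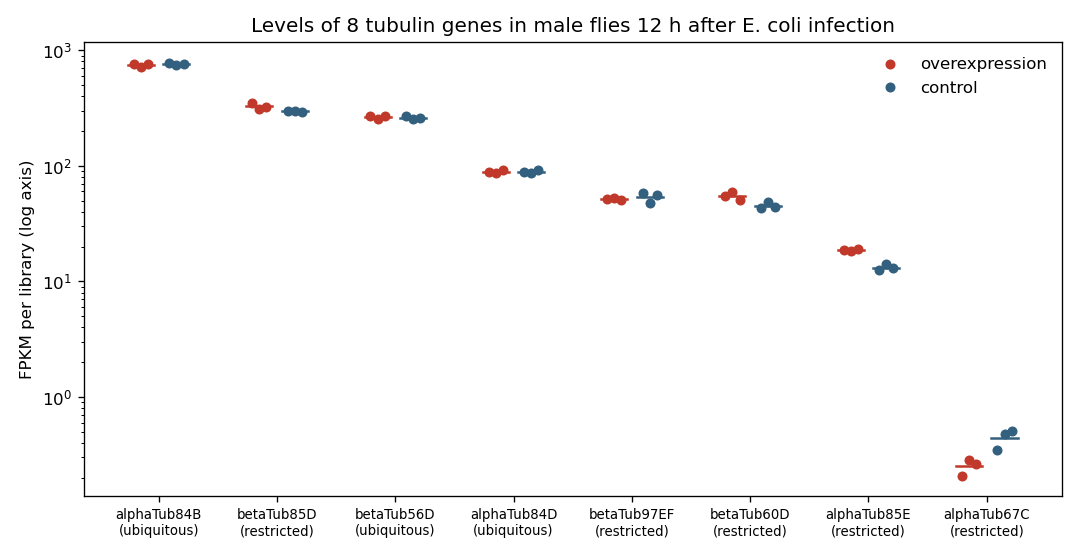
FPKM of each library (points, log axis) for the 8 tubulin genes in order of mean level, overexpressing flies in red to the left of control flies in blue, with a bar at the mean of 3 libraries. Levels run from 754 FPKM for alphaTub84B to 0.348 for alphaTub67C, and betaTub85D lies above betaTub56D in every library.

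Among the ubiquitous isotypes, alphaTub84B (FBgn0003884), the main alpha tubulin of the fly, lies on chromosome arm 3R, plus strand, from 7086599 to 7088839 (dm6) in 2 exons. It had 23620, 22394 and 23589 normalized counts in the overexpressing flies, against 24566, 23782 and 24448 in the control flies. Every overexpression library was below every control library, by 162 normalized counts at the closest. In FPKM, scaled to the library total, the groups overlapped, with 761, 722 and 759 in the overexpressing flies, against 775, 748 and 758 in the control flies. The log2 fold change was -0.065 (standard error 0.053, 95% interval -0.18 to 0.051), with an adjusted p of 0.529 from limma. Such a p does not show that the levels were alike, and the interval still holds a decrease of 0.18 on the log2 scale.

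alphaTub84D (FBgn0003885), a single-exon gene at 7530753 to 7532732 on the plus strand of 3R, encodes a protein nearly identical to that of alphaTub84B. It had 3124, 3011 and 3200 normalized counts with overexpression, against 3143, 3135 and 3381 in control flies, and the groups overlapped (log2 fold change -0.049, 95% interval -0.16 to 0.060, adjusted p = 0.627 from limma). How reads shared by these near-identical genes were assigned was not stated, so the split between them is uncertain. Its ratio to alphaTub84B in FPKM was 0.119 ± 0.0015 with overexpression and 0.117 ± 0.0046 without (SD, n = 3 each), again overlapping.

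betaTub56D (FBgn0003887 in the deposited table), the general beta tubulin, lies on the minus strand of 2R from 19447319 to 19451600. Its libraries held 8889, 8353 and 8883 normalized counts in overexpressing flies, against 9109, 8564 and 8899 in control flies. The groups overlapped over most of their range, and the log2 fold change was -0.025 (95% interval -0.13 to 0.083, adjusted p = 0.822 from limma). The direction of these 3 ubiquitous isotypes depended on the scaling: all 3 turned positive with quantile normalization, and betaTub56D also with scaling to the library total.

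alphaTub85E (FBgn0003886) spans 9731221 to 9733250 on the minus strand of 3R in 3 exons and encodes an alpha isotype known from muscle attachment cells, sensory organs and testis somatic cells. The 3 overexpression libraries had 515, 505 and 524 normalized counts, against 351, 397 and 374 in the control libraries. The libraries of the overexpressing flies sat close together, with a coefficient of variation of 1.78% against 6.03% in the control flies, and the closest libraries of the 2 genotypes were 109 normalized counts apart. The log2 fold change of 0.46 (standard error 0.075, 95% interval 0.30 to 0.62) passed the threshold with an adjusted p of 0.0024 from limma. By its p-value alphaTub85E ranked 89 among the 420 genes called higher. The call held in each of the 18 settings run, with an adjusted p between 0.00145 and 0.0405, and the log2 fold change lay between 0.42 and 0.51 as each library was left out in turn.

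betaTub60D (FBgn0003888 in the deposited table), at 24305881 to 24313099 on the plus strand of 2R, encodes the beta isotype that is known to be made together with alphaTub85E in several of these cells. It had 2446, 2631 and 2253 normalized counts with overexpression, against 1951, 2215 and 2038 in the control flies. The groups did not overlap, although the lowest overexpression library exceeded the highest control library by only 38.4 normalized counts. The log2 fold change was 0.24 (standard error 0.066, 95% interval 0.097 to 0.38) with an adjusted p of 0.0419 from limma, just under the threshold. The call was lost without overexpression replicate 1 (0.24), overexpression replicate 2 (0.18), control replicate 1 (0.20) or control replicate 3 (0.23). It was also lost without the intensity trend (0.24), and with limma voom, edgeR and DESeq2, which were run without overexpression replicate 1. Whether alphaTub85E differed from betaTub60D in its change was not tested.

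**Figure D2:**
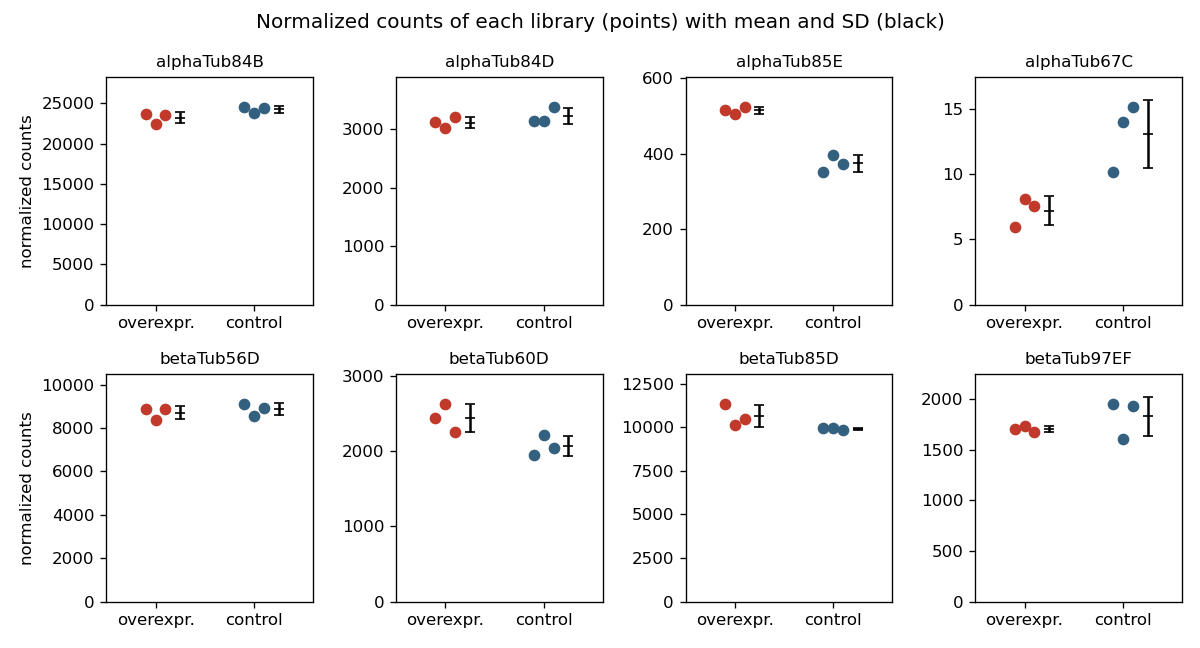
Normalized counts of each library for the 8 tubulin genes (points, overexpressing flies in red, control flies in blue) with the mean and SD of 3 libraries in black, each axis starting at 0. alphaTub85E separates most clearly, with 505 to 524 in the overexpressing flies and 351 to 397 in the control flies.

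The balance between the partner genes is a description of the libraries, with no test. On the FPKM scale, betaTub60D stood at 2.94 ± 0.28 times alphaTub85E with overexpression and at 3.43 ± 0.041 times without (SD, n = 3 each). The ratios were 2.94, 3.22 and 2.67 with overexpression, against 3.44, 3.46 and 3.38 without, so the groups did not overlap and the overexpression libraries varied more. alphaTub85E amounted to 0.0249 ± 0.00042 of alphaTub84B in the overexpressing flies, against 0.0173 ± 0.0013 in the control flies, with no overlap. betaTub60D amounted to 0.209 ± 0.023 of betaTub56D against 0.174 ± 0.017, and here the groups overlapped.

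betaTub85D (FBgn0003889), the testis-specific beta tubulin, spans 9408383 to 9410282 on the minus strand of 3R. The overexpressing flies gave 11337, 10126 and 10445 normalized counts and the control flies 9954, 9947 and 9848. The control libraries were nearly the same, with a coefficient of variation of 0.595%, whereas overexpression replicate 1 lay above its own group's other libraries. The groups did not overlap, but the log2 fold change of 0.099 (95% interval -0.015 to 0.21) was not called, with an adjusted p of 0.298 from limma. It was 0.053 without overexpression replicate 1, and 0.18 and called (adjusted p = 0.0415 from limma) only with quantile normalization. Relative to betaTub56D it stood at 1.24 ± 0.051 in the overexpressing flies, against 1.14 ± 0.037 in the control flies, and the lowest overexpression library had a ratio of 1.19, against 1.18 in the highest control library.

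The other male germline genes give the setting of betaTub85D. Of 33 tested testis germline genes 0 were called in either direction, 17 were higher in the overexpressing flies, and their median log2 fold change was 0.0015. With quantile normalization, where betaTub85D was called, 22 of the 33 were higher, 1 was called and the median was 0.069. Among all 13196 genes tested, 6768 were higher, and 6893 with quantile normalization. Axonemal dyneins are motors of the sperm tail and of sensory cilia. The 10 genes of the axonemal dynein list likewise had 0 called, 5 higher and a median of 0.0093. In whole flies, fewer cells of a type and less RNA per cell cannot be told apart, and this holds for each tissue-restricted isotype.

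betaTub97EF (FBgn0003890), an isotype of gut and blood cells, extends over 27967008 to 27988384 on the minus strand of 3R, the longest span of the 8 genes, with 8 separate exonic blocks. It had 1707, 1738 and 1675 normalized counts in overexpressing flies, against 1956, 1612 and 1932 in control flies. Control replicate 2 lay below all overexpression libraries and the 2 other control libraries above them, so the groups overlapped. The log2 fold change was -0.098 (95% interval -0.25 to 0.053, adjusted p = 0.453 from limma), and -0.19 without control replicate 2, where it still was not called (adjusted p = 0.0672 from limma).

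alphaTub67C (FBgn0087040), the maternal alpha tubulin, at 9681268 to 9683370 on the plus strand of 3L, was barely detected. It had 5.96, 8.14 and 7.55 normalized counts in overexpressing flies, against 10.2, 14.0 and 15.2 in control flies. The groups did not overlap, but at this depth each value rests on few reads, and the mean of 0.348 FPKM was under the filter. Tested without the filter, its log2 fold change was -0.77 and was not called (adjusted p = 0.266 from limma). The maternal gamma tubulin gammaTub37C, named here after its values were seen, was as low, with 3.62 ± 0.688 normalized counts with overexpression and 7.09 ± 1.81 in control flies. Of the ovary and oocyte list, 11 of 13 genes were matched, 5 passed the filter and 0 were called. Their mean levels lay between 0.0781 FPKM for osk, which specifies the posterior pole of the egg, and 9.41 FPKM for grk, a ligand of the egg's axes, with a median of 0.49.

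**Figure D3:**
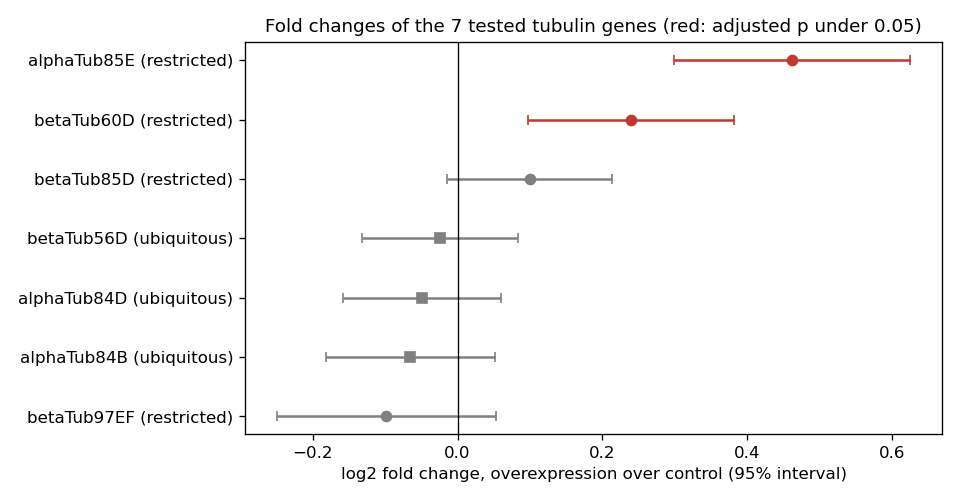
Log2 fold change (overexpressing over control flies) of the 7 tested tubulin genes with its 95% interval from limma, squares for ubiquitous and circles for tissue-restricted isotypes, red where the adjusted p was under 0.05. Only the intervals of alphaTub85E (0.30 to 0.62) and betaTub60D (0.097 to 0.38) lie above 0.

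Of the 7 tested tubulin genes, 4 had groups that did not overlap (alphaTub84B, which overlapped in FPKM, alphaTub85E, betaTub60D and betaTub85D), where 27.3% of all genes tested did so. With 2 of 7 genes called higher, beside 3.18% of all genes tested, the share is above the background, but it rests on 2 genes, one of which was close to the threshold. For any single gene, an exact two-sided permutation test on 3 libraries against 3 cannot give a p below 0.1.

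The order of the isotypes within each pool was set by the same leading genes in every library. The pools hold only the chosen genes and leave out the other tubulin genes CG7794 (mean 46.25 FPKM) and CG32396 (34.84 FPKM). In the alpha pool, the sum of the 4 alpha isotypes in FPKM, alphaTub84B held 87.4% ± 0.143 with overexpression and 88.1% ± 0.409 without (SD, n = 3 each). alphaTub84D held 10.4% ± 0.116 against 10.3% ± 0.361, and alphaTub85E held 2.18% ± 0.034 against 1.53% ± 0.114, with no overlap for alphaTub85E. In the beta pool, betaTub85D held 46.9% ± 1.10 in the overexpressing flies, against 45.2% ± 0.786 in the control flies, which overlapped, and betaTub56D 37.8% ± 0.940 against 39.7% ± 0.606, which did not. betaTub60D held 7.89% ± 0.757 against 6.89% ± 0.558, and betaTub97EF 7.42% ± 0.333 against 8.22% ± 0.747, both overlapping.

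**Figure D4:**
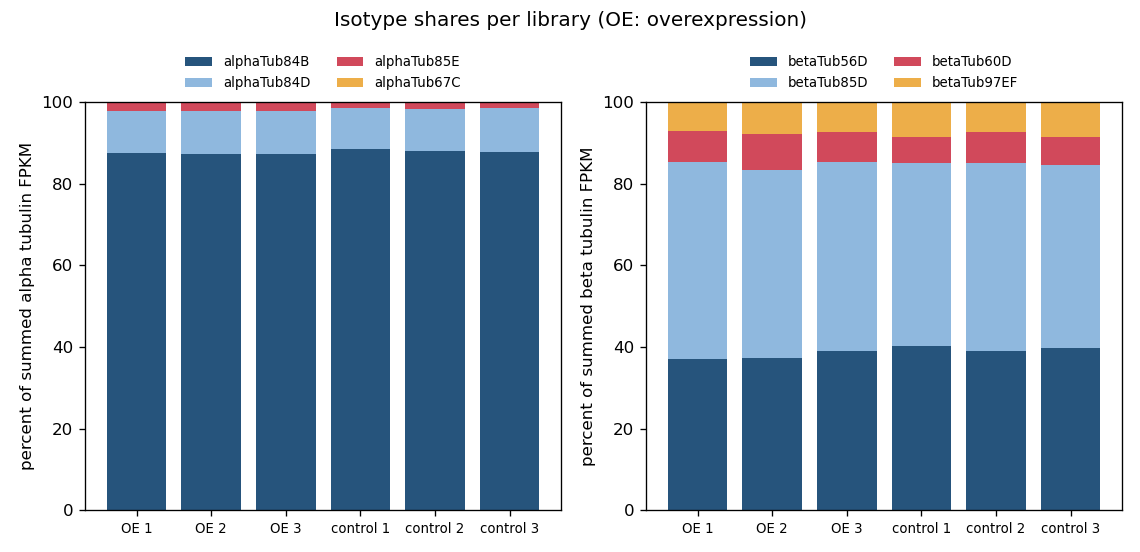
Stacked bars of the percent that each isotype held of the summed alpha tubulin FPKM (left) and of the summed beta tubulin FPKM (right) in each library, overexpressing flies (OE) before control flies. alphaTub84B makes up over 87% of the pool of 4 alpha genes in every library. betaTub85D and betaTub56D together make up most of the pool of 4 beta genes.

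Summed over isotypes, the alpha pool was 855 ± 24.4 FPKM in the overexpressing flies, against 863 ± 13.0 in the control flies, and the groups overlapped. The beta pool was 695 ± 24.2 FPKM in the overexpressing flies, against 655 ± 12.3 in the control flies, with no overlap between the libraries. Summed as normalized counts the picture was the reverse, as the alpha pool did not overlap (26834 ± 794 with overexpression and 27872 ± 478 without) and the beta pool did (23494 ± 793 with overexpression and 22675 ± 319 without). The ratio of the alpha to the beta pool, which does not depend on the scaling of the libraries, was 1.20, 1.22 and 1.26 with overexpression and 1.31, 1.31 and 1.33 in control flies. The summed tissue-restricted isotypes stood at 0.411 ± 0.015 of the summed ubiquitous isotypes in the overexpressing flies, against 0.368 ± 0.00635 in the control flies, without overlap. Most of that sum is betaTub85D, and without it the ratio was 0.114 ± 0.0078 against 0.101 ± 0.0011, still without overlap. Of the isotypes left, alphaTub85E (18.63 against 13.15 FPKM) and betaTub60D (54.8 against 45.1) were higher with overexpression. The means of betaTub97EF (51.5 against 53.8 FPKM) and alphaTub67C (0.252 against 0.444) were lower. These sums are descriptions of the chosen genes, and no test was run on them.

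Of the 62 tested genes that nucleate, fold, modify, sever or bind microtubules or tubulin, or encode other tubulins, 0 were called higher and 1 (1.61%) lower, beside 3.18% and 5.24% of all genes tested. Of the 8 subunits of the CCT chaperonin, which folds new tubulin, 0 were called and 7 were higher, with a median log2 fold change of 0.048. Of all 13196 genes tested, 6768 were higher, against 8069 with scaling to the library total and 6893 with quantile normalization. All 11 prefoldin and tubulin cofactor genes, which hand tubulin to CCT and assemble the dimer, were higher and 0 were called, and all 11 stayed higher with scaling to the library total, where 1 was called, and with quantile normalization. Their median log2 fold change was 0.13, beside 0.0059 for all genes tested, and they ranged between 0.039 for the tubulin cofactor D gene CG7261 and 0.27 for the prefoldin 4 gene CG10635 (adjusted p = 0.0546 from limma). CG10635 averaged 451 normalized counts with overexpression and 376 without. Of the 7 tested genes of the gamma-tubulin ring complex, which nucleates microtubules, 0 were called, with log2 fold changes between -0.081 (Grip163) and 0.14 (Grip75). The other tubulin genes CG32396 (betaTub65B in newer annotation), CG7794 and gammaTub23C had log2 fold changes of -0.076, 0.053 and 0.076, and 0 of them were called. Of these, gammaTub23C is also counted in the ring complex.

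Map205, a microtubule-associated protein that also binds the Polo kinase, was the 1 gene of these lists that passed the threshold. Map205 averaged 1638 normalized counts with overexpression and 2242 in control flies, and it fell by 0.45 on the log2 scale (adjusted p = 0.000273 from limma) with no overlap between the groups. The other 15 of the 16 microtubule-associated genes were not called, and the median of the list was 0.012. 1 more gene was called lower when 1 library was left out, shot without overexpression replicate 3 (-0.22) or control replicate 2 (-0.23) and tau without control replicate 1 (-0.25), and shot also with the replicate block. The upper end was Klp67A, a kinesin of the spindle, with a log2 fold change of 0.20. Of the 4 severing enzymes 0 were called, between -0.026 for spas and 0.29 for CG3326. Of the 14 tested enzymes that add or remove acetyl, glutamyl and glycyl groups on tubulin 0 were called, between -0.19 for the deacetylase HDAC6 and 0.065 for CG5987 (TTLL6B in newer annotation). In this list 4 genes were higher and the median was -0.034, but 8 were higher and the median was above 0 with either other scaling. Beside them, 8069 of all 13196 genes tested were higher with scaling to the library total and 6893 with quantile normalization. HDAC6 was called lower without overexpression replicate 1 (-0.28), with the replicate block and with limma voom, edgeR and DESeq2 on the 5 libraries that lack that replicate.

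Some of the tissues in which the restricted isotypes are known were followed with marker lists beside them. No list marked the mesoderm or muscle attachment cells, and the testis list here mixes somatic and germline genes. The chordotonal and cilia genes, known from mechanosensory organs, had 0 of 5 tested genes called and a median log2 fold change of -0.071. Their sums overlapped, at 10.4 to 10.7 FPKM in the overexpressing flies and 9.98 to 11.04 in control flies. The cyst cell and early germline genes of the testis had 0 of 8 called and a median of -0.066, with sums between 22.9 and 24.8 FPKM in overexpressing flies and between 22.5 and 24.2 FPKM in control flies. Most of the chordotonal sum came from nompB, at 6.66 FPKM. Near the filter of 0.5 FPKM lay bam and piwi, at 0.66 and 0.69 FPKM. They were the ends of the range of the cyst cell and early germline genes, -0.41 and 0.54 on the log2 scale. The part of these cells in the values of alphaTub85E and betaTub60D was not tested. The neuron genes had 0 of 6 called, and their median was -0.14.

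The gut and blood cell lists hold few genes, and their calls stand beside 3.18% called higher and 5.24% called lower of all genes tested. Of the 7 gut epithelium genes, mex1, an enterocyte membrane protein, and nub, an enterocyte transcription factor, were called higher by 0.80 and 0.48 on the log2 scale, and the other 5 were not called. The list summed to between 4459 and 4815 FPKM in the overexpressing flies, against 3728 to 4345 in the control flies, mostly from 2 trypsin genes. Of the 6 tested blood cell genes, Hml was called higher (0.21) and NimC1 and Pxn lower (-0.56 and -0.33), with 3 not called, and the sums were between 96.1 and 105 FPKM in overexpressing flies and between 97.7 and 99.0 in control flies. The Pxn groups overlapped. Its call was lost with either other scaling, either other pseudocount and either other filter, and with limma voom, edgeR and DESeq2. The fits with limma voom, edgeR and DESeq2 were run without overexpression replicate 1. The Pxn call was also lost without overexpression replicate 1 (-0.30), overexpression replicate 3 (-0.30), control replicate 1 (-0.24) or control replicate 3 (-0.31). The call of NimC1 was lost without the intensity trend (adjusted p = 0.0835 from limma), as were those of Hml, Pxn and nub. The call of Hml was also lost with limma voom, edgeR and DESeq2, and without overexpression replicate 1 (0.19), control replicate 2 (0.18) or control replicate 3 (0.21), and that of nub without overexpression replicate 2 (0.38), control replicate 1 (0.45) or control replicate 3 (0.43). mex1 and Map205 were called in every setting run. The part of gut and blood cells in the values of betaTub97EF was not tested.

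Over the windows of 50 kb on either side of the 8 tubulin genes, 0 of 151 tested genes were called higher and 6 (3.97%) lower. Beside them stand 3.18% called higher and 5.24% called lower of all genes tested. Within 50 kb on either side of alphaTub85E, 0 of 29 tested genes were called, with a median log2 fold change of -0.016. Around betaTub60D, 1 of 8 tested genes was called, CG3376, which was lower. Around alphaTub84D, 4 of 16 were called lower, the esterase genes alpha-Est1, alpha-Est2, alpha-Est5 and alpha-Est10, and CG8129 was called lower among 16 genes around betaTub85D. The windows of alphaTub84B, alphaTub67C, betaTub56D and betaTub97EF held 0 called genes. No other gene listed in the table overlaps any of the 8 tubulin genes.

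Over the 6 libraries, the gene whose centred log2 values lay nearest to alphaTub85E was Sulf1, an extracellular heparan sulfate sulfatase, at a root mean square difference of 0.046, where the median over 3364 candidate genes was 0.288. Sulf1 was itself called higher, by 0.41 on the log2 scale. The nearest gene to betaTub60D was the cytochrome P450 gene Cyp313a1 at 0.019 (log2 fold change 0.23, called higher), and to betaTub85D bor at 0.013. The nearest to alphaTub84B was CG6455, to alphaTub84D Cerk, to betaTub56D Cka, to betaTub97EF Ctr1B and to alphaTub67C the noncoding CR43491. With 6 libraries and so many candidates, a close neighbour is always found, so these names describe likeness in these libraries only.

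**Figure D5:**
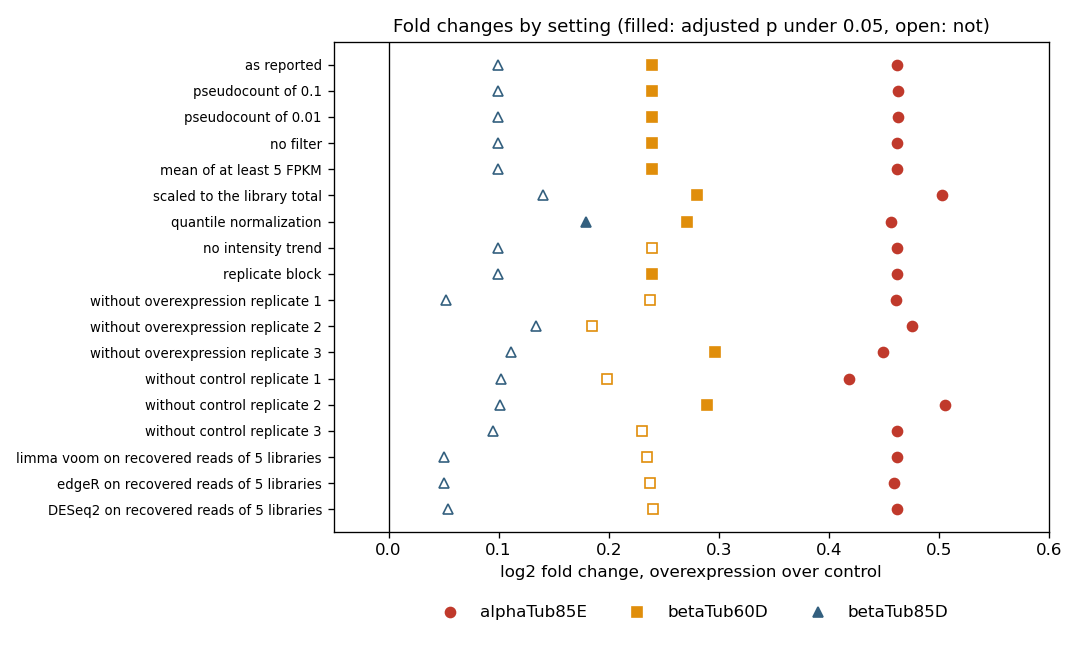
Log2 fold change (overexpressing over control flies) of alphaTub85E, betaTub60D and betaTub85D in each of 18 settings, filled where the adjusted p was under 0.05. alphaTub85E is filled in all 18, betaTub60D in 10 and betaTub85D in 1.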

How the data were processed

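Paired-end reads of 6 libraries were aligned by the authors with Hisat2 v2.0.5 and counted per gene with FeatureCounts v1.5.0-p3. The genome build named in the submitters' processing notes is dm6, and the annotation release was not stated in the sources used here. The deposited values are called FPKM by the table's name, but hold a signal: gene read counts that the authors had scaled with a single size factor for each library. In 5 libraries 100% of values were whole reads (tolerance 0.01), with totals from 16894595 to 19423287. For overexpression replicate 1, 1 read was worth so nearly 1 that recovery was not claimed, and it entered no count test. The authors' fold changes, p-values and group means were not used.

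Values were log2-transformed with a pseudocount of 1 and fitted with limma 3.58.1 (R 4.3.3, intensity trend) over the 13196 genes whose mean reached 0.5 FPKM. FPKM used the deposited gene length. Python 3.11.15 and pandas 2.3.3 were used, and each fit was tested on simulated data. Replicates differed by more than sampling noise in every pair. Positions of the 8 genes equalled those in Ensembl release annotation BDGP6, where betaTub56D and betaTub60D have newer identifiers. Gene lists took newer symbols through that annotation and RefSeq, and 2 ovary genes were not matched. By plan, the named genes were the 8 tubulin genes, the called or extreme members of the tubulin-related lists and the gene of nearest pattern. Genes of the cell type marker lists and of the windows of 50 kb were named outside this plan, by their calls or values. Members and lists were chosen with earlier results of these data known. Alternatives were other pseudocounts, filters, scalings, no trend, the replicate block, leaving out libraries, and limma voom, edgeR 4.0.16 and DESeq2 1.42.0 on recovered reads of 5 libraries, the last 3 chosen after seeing the data.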

Additional observations from a re-analysis of the deposited data

How the results depend on the processing

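alphaTub85E kept its direction and call in every setting run. betaTub60D kept its direction everywhere, but its call was lost without the intensity trend (0.24) and with limma voom (0.24), edgeR (0.24) and DESeq2 (0.24) on the reads of 5 libraries, which also lack overexpression replicate 1, so that 1 tubulin gene was then called. With each library left out, betaTub60D ranged from 0.18 to 0.30 and the number of tubulin genes called from 1 to 2. Quantile normalization raised betaTub85D to 0.18, called, and turned alphaTub84B to 0.0071, alphaTub84D to 0.0096 and betaTub56D to 0.073. betaTub56D was also 0.016 with scaling to the library total, and ranged from -0.049 to 0.0051 with each library left out, positive only without overexpression replicate 2. None of these sign changes was called.

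Genes called higher numbered 632 with scaling to the library total, 94 without the trend and 245 with DESeq2 on 5 libraries, and genes called lower 99 without the trend. With scaling to the library total the genes called lower numbered 503, so 55.7% of calls were upward in place of 37.8%, and the median over all genes moved by 0.041 on the log2 scale. Leaving out libraries gave 201 to 393 genes called higher and 328 to 618 called lower. The lowest counts came without control replicate 1 (201 and 328), control replicate 3 (235 and 394) and, for genes called higher, overexpression replicate 1 (279). The cause of these changes was not tested.

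With the replicate block 517 genes were called higher and 846 lower, and 2 tubulin genes as before. Over all genes that passed the filter, same-numbered libraries did not deviate together (correlations -0.034, 0.052 and -0.036). Such correlations cannot show whether same-numbered libraries shared handling that touched some genes, and this was not tested. The planned count tests on all 6 libraries were not run, because reads were not recovered for overexpression replicate 1. Without division by gene length, the alpha to beta ratio was 1.14 with overexpression and 1.23 without. Of 120 alternative fold changes of the tubulin genes, 106 kept direction and side of the threshold. Low depth limits alphaTub67C alone among the 8 genes.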
